A study of Mus musculus with 4 samples.

Results

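The Wnt pathway genes described here were 64 genes measured in mesenchymal stromal cells (MSCs) of adult mouse bone marrow. They comprised 19 Wnt ligands, 2 genes of ligand export, 10 frizzled receptors, 3 genes grouped as LRP co-receptors, 12 secreted antagonists, 9 genes of the R-spondin branch, 5 genes of β-catenin and its destruction complex, and 4 TCF/LEF factors. They were chosen by gene symbol out of the 56980 genes of the count table. The choice took the families named Wnt, Fzd, Sfrp, Dkk and Rspo and the receptors Lgr4, Lgr5 and Lgr6. It also took a list of partners such as Lrp6, Wif1, Ctnnb1 and Tcf7l2. No level served as a criterion, but earlier results of these data were known when the genes were chosen. The libraries came from 4 wild-type male C57BL/6J mice of a colony long inbred in-house, aged 14 weeks and given no treatment named in the labels. From each mouse, 100 bone marrow cells were sorted as negative for CD45, Ter119, CD31 and Sca1 and positive for CD51 and PDGFRa, and full-length cDNA was made from their polyadenylated RNA. All 4 libraries formed 1 group, so levels were compared between genes within a mouse and between mice, and no condition was compared.

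Wnt proteins are secreted lipid-modified ligands that bind a frizzled receptor together with LRP5 or LRP6. Binding keeps β-catenin from being degraded by a complex of AXIN, APC and GSK3, and β-catenin then works with TCF/LEF factors on the DNA of target genes. Secreted antagonists hold back either the ligand or the LRP co-receptor, and R-spondins keep frizzled receptors on the surface by way of LGR receptors and the E3 ligases ZNRF3 and RNF43. In bone the canonical pathway is known to favour osteoblasts over adipocytes, and in the marrow the same stromal cells give rise to both.

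The libraries held between 22738604 and 43545349 counts on genes. The antigens and niche genes of the gate were present, with all 8 of their list above 1 TPM (a count corrected for gene length and for the size of the library) in every mouse. So were all 7 osteoblast markers, whose summed level ran from 102175 to 197228 TPM. The endothelial list summed to at most 0.274 TPM with Cdh5 and Kdr at 0. The haematopoietic markers Csf1r, C1qa, Adgre1, Ly6g and Cd3e had no count in any mouse. Alas2, an enzyme of haem synthesis in red cell precursors, had 845, 0, 308 and 0 counts in mice 1, 2, 3 and 4. The adipocyte list was highest in mouse 2 (962 TPM) and mouse 3 (439 TPM), against 199 and 234 TPM in mice 1 and 4, with Plin1 at 0. The chondrocyte list summed to 30.2 TPM in mouse 1 and to between 1.42 and 12.4 TPM in the others, and the osteocyte list to between 60.3 and 153 TPM. Ly6a, which encodes the Sca1 antigen excluded by the sort, had 1, 120, 0 and 144 counts in mice 1, 2, 3 and 4. Values below are given for mice 1, 2, 3 and 4 in that order unless another order is stated.

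In these cells the secreted antagonists were the most abundant Wnt genes and the Wnt ligands were among the least. The 12 antagonists summed to 1085, 1548, 1468 and 840 TPM, whereas the 19 ligands summed to 14.7, 1.72, 21.1 and 7.39 TPM. The lowest antagonist sum was thus far above the highest ligand sum. The frizzled receptors lay between them with 43.2, 50.5, 29.2 and 39.1 TPM, and the R-spondins summed to 7.79, 20.8, 12.4 and 6.83 TPM. The antagonist sum came mostly from Wif1 and Sfrp4, which made up 68.5%, 68.9%, 69.4% and 56.6% of the TPM of all 64 genes. In bulk RNA of 100 cells, a few cells with much of a transcript and many cells with little of it cannot be told apart.

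**Figure D1:**
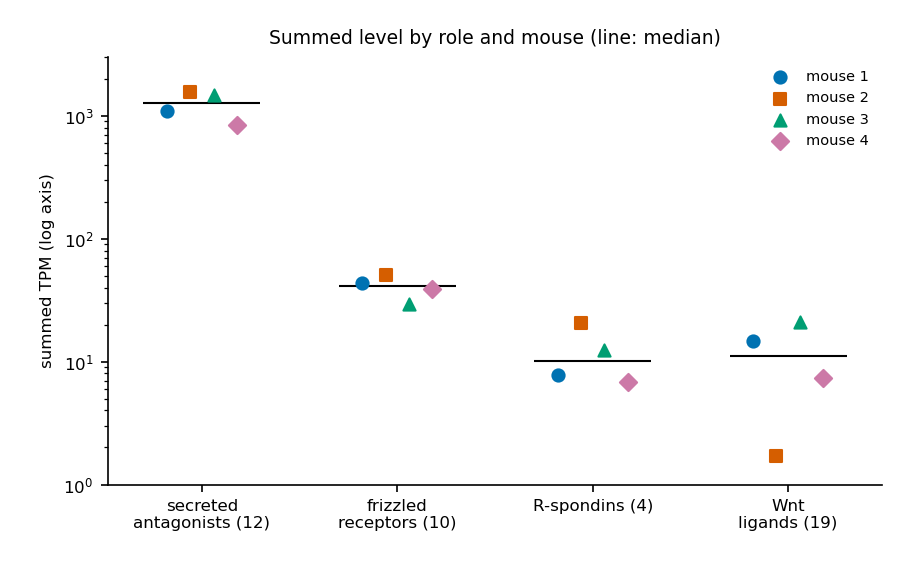
Summed TPM (log axis) of the 12 secreted antagonists, 10 frizzled receptors, 4 R-spondins and 19 Wnt ligands, 1 point per mouse. The antagonist sums lie between 840 and 1548 TPM and the ligand sums between 1.72 and 21.1 TPM, with no overlap.

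A gene was called expressed where its median over the 4 mice was above 1 TPM, the cutoff that the study applied to its MSC data. By this rule 29 of the 64 genes were expressed, which is 45.3%. The same rule called 44.2% of protein-coding genes and 22.9% of all genes with an annotated length, so the share of Wnt genes was close to that of protein-coding genes. Above 1 TPM in every mouse were 20 Wnt genes (31.25%), beside 30.1% of protein-coding genes. Of the 35 genes that were not expressed, 17 had at least 10 counts in some mouse, 6 were detected with fewer and 12 had no count in any mouse. The share varied by role. Export (2 of 2), the destruction complex with β-catenin (4 of 5) and the TCF/LEF factors (3 of 4) were mostly expressed, whereas only 3 of 19 ligands passed.

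The antagonists that bind the ligand itself included the gene with the highest median of all 64. Wif1, which encodes Wnt inhibitory factor, a secreted protein that binds Wnt ligands, had 33180, 18942, 49361 and 7730 counts, or 777, 702, 1177 and 308 TPM. Its mean was 741 ± 356 TPM (SD, n = 4) and its median lay at percentile 99.4 of protein-coding genes. Mouse 3 was highest and mouse 4 lowest. The gene (ENSMUSG00000020218) has 10 exons in its longest annotated transcript and lies on the plus strand of GRCm38 at chr10:121033960-121100650. Sfrp4, a secreted frizzled-related protein that binds Wnts through a frizzled-like domain, had 249, 682, 219 and 355 TPM (mean 376 ± 212, SD, n = 4; percentile 98.5; ENSMUSG00000021319, chr13:19623104-19632994, plus strand). Here mouse 2 was highest. Wif1 exceeded Sfrp4 in mice 1, 2 and 3 but not in mouse 4, and their within-mouse difference of 0.97 ± 1.26 in log2(TPM + 1) was smaller than its SD, so their order is not set.

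The other ligand-binding antagonists were far lower and uneven between mice. Notum, a secreted enzyme that removes the lipid from Wnts, had 0.142, 14.9, 11.3 and 9.52 TPM, with only 6 counts in mouse 1. About 29.4% of the exonic bases of Notum overlap the antisense gene Notumos, which had no counts, and read pairs in the overlap would by default be assigned to neither gene, so Notum may be understated. Frzb, another frizzled-related protein, had 3.53, 0, 15.7 and 13.6 TPM, and its 0 in mouse 2 allows at most 0.0833 TPM by the counting limit of 3 counts. Sfrp1 had 0.026, 18.9, 7.76 and 1.42 TPM and was thus near absent in mouse 1 and highest in mouse 2. Sfrp5 was found in mouse 1 alone, with 347 counts (10.4 TPM), and Sfrp2 had no count in any mouse. Sfrp4 exceeded Notum, the next gene by median, by 5.61 ± 1.54 in log2(TPM + 1) and in all 4 mice. The order of Notum, Frzb and Sfrp1 was within the spread.

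Among the 5 genes grouped here as antagonists at LRP5 and LRP6, Dkk1 was highest in every mouse. Dickkopf-1 binds the LRP co-receptor and is itself a known target of canonical Wnt signalling. Dkk1 had 1335, 2621, 969 and 3416 counts, or 31.3, 97.1, 23.1 and 136 TPM (mean 71.9 ± 54.2, SD, n = 4; ENSMUSG00000024868, chr19:30545863-30549665, minus strand). Mice 2 and 4 had the higher values and mice 1 and 3 the lower ones. Mice 2 and 4 were also the libraries in which Ly6a was detected above 1 count and Alas2 had no count, and the part of either in the level of Dkk1 was not tested. Dkk3, a family member that does not bind LRP6 as Dickkopf-1 does, had 10.7, 33.7, 14.4 and 15.8 TPM. Dkk1 exceeded Dkk3 in all 4 mice, by 1.66 ± 1.0 in log2(TPM + 1). Dkk4 was found in mouse 1 alone, with 66 counts, and neither Dkk2 nor Sostdc1 had a count.

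**Figure D2:**
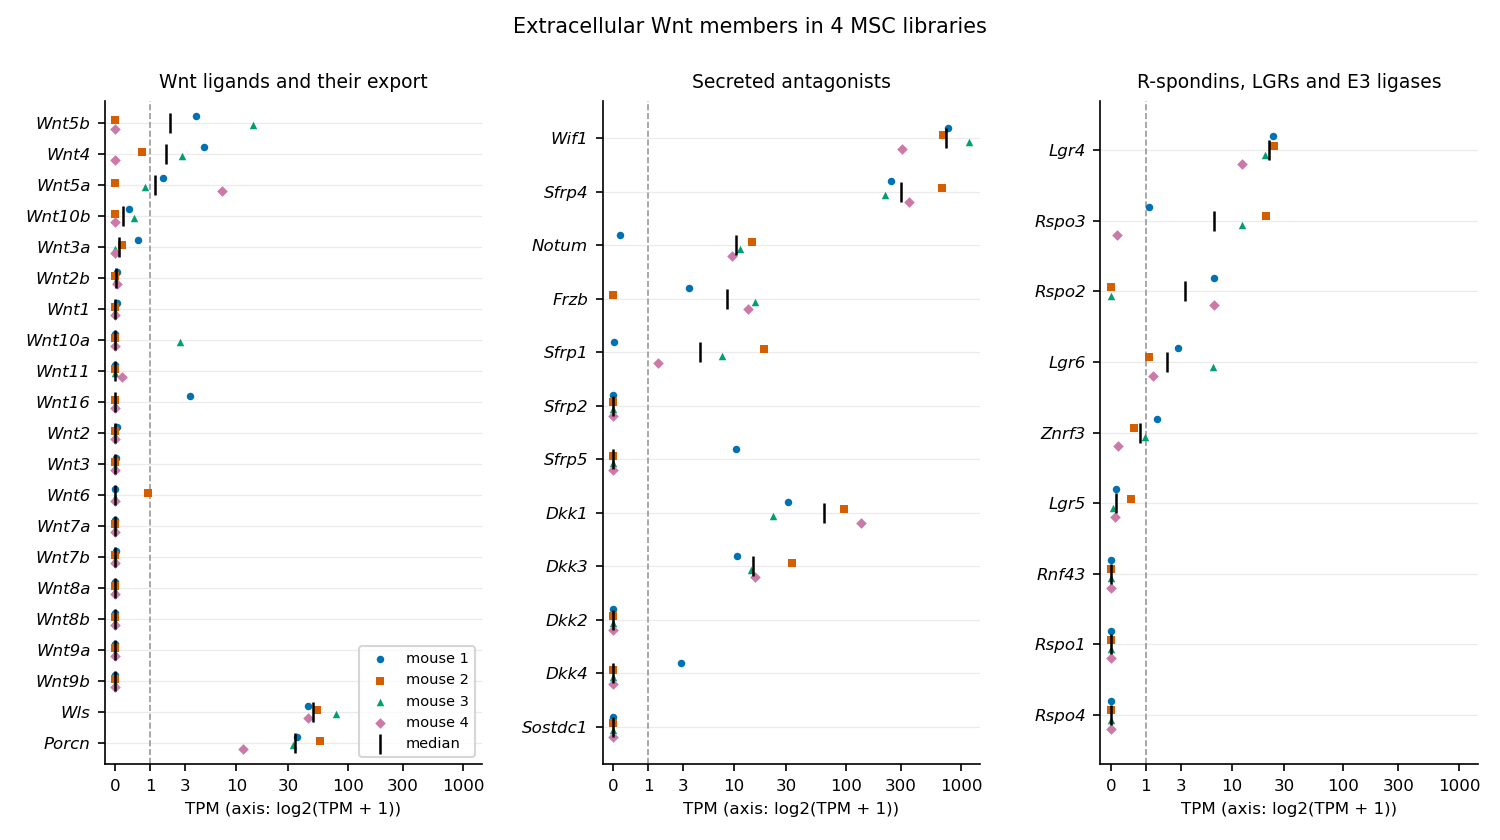
Levels of extracellular Wnt genes in TPM, on an axis of log2(TPM + 1), 1 point per mouse. Wif1 and Sfrp4 lie above 200 TPM in every mouse and Dkk1 above 20 TPM, whereas the ligand with the highest single value, Wnt5b in mouse 3, reaches 14.5 TPM.

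Promoter sequence was examined for the letters CTTTGAA and CTTTGAT, on either strand, in the 250 bases before each RefSeq transcription start of GRCm38.p6. These letters are the common core recognised by TCF/LEF factors. RefSeq promoter windows were found for 40 of the 64 genes, and 3 of these genes held a match, Dkk1, Wnt5b and Wnt11. Of all 27025 genes with such windows, 8.63% held one. The stretches are shown because they are the 3 matches. The stretch before the start of Wif1, the highest gene by median, is shown with them, and its window held none. Capitals mark the match, and each line reads 5′ to 3′ on the strand of the gene. The minus-strand stretch of Dkk1 lies at chr19:30549595-30549624 and its match begins 117 bases before the RefSeq start. GENCODE places the start of Dkk1 169 bases before that of RefSeq, so by that annotation the match lies within the first exon.
Dkk1: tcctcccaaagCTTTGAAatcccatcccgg
The stretch of Wnt5b, on the minus strand at chr6:119449421-119449487, has its match 71 bases before one of several annotated starts, within the gene as GENCODE annotates it.
Wnt5b: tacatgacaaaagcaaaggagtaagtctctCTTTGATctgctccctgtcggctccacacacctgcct
The stretch of Wnt11, on the plus strand at chr7:98835031-98835097, has its match on the opposite strand.
Wnt11: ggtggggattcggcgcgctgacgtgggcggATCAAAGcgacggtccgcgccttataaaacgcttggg
The stretch of Wif1, on the plus strand at chr10:121033754-121033959, ends at the base before the GENCODE start.
Wif1: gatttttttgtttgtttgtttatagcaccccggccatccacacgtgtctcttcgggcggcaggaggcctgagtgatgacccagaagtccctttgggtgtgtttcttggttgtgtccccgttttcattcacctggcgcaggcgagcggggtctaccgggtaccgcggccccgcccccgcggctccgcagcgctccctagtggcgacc
The 3 genes with a match had very different levels, from the mean of 71.9 TPM of Dkk1 to Wnt11, which had 6 counts in mouse 4 and none elsewhere. A match describes the letters only.

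Of the 19 Wnt ligands, 3 were expressed and none was above 1 TPM in every mouse. Wnt5b, a ligand known mainly for signalling without β-catenin, had 184, 0, 664 and 0 counts, or 3.94, 0, 14.5 and 0 TPM (chr6:119432531-119544347, minus strand). By counting error alone, the 2 zeros allow at most 0.102 and 0.109 TPM in mice 2 and 4. Wnt4, a ligand of several tissues including bone, had 4.84, 0.686, 2.76 and 0 TPM (chr4:137277489-137299726, plus strand). About 10.2% of its transcript is nearly identical to transcripts of other genes, so part of its reads could have been lost as not unique. Wnt5a, the best-known ligand of the pathway without β-catenin, had 1.58, 0, 0.784 and 7.22 TPM (chr14:28504750-28527448, plus strand), with mouse 4 highest. Each of the 3 genes thus had a mouse without a count, and their order was within the spread. Their passing depended on single mice, since without mouse 1 all 3 fell to 1 TPM or below, without mouse 3 Wnt4 and Wnt5b did, and without mouse 4 Wnt5a did.

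The leading ligand was a different gene in every mouse. It was Wnt4 in mouse 1 with 32.8% of the ligand TPM, Wnt6 in mouse 2 with 52.5%, Wnt5b in mouse 3 with 68.6% and Wnt5a in mouse 4 with 97.8%. In mouse 2 the lead rested on 22 counts of Wnt6 (0.902 TPM), and no ligand of that mouse reached 1 TPM. Wnt6 was not detected in any other mouse. Wnt16, a ligand known from cortical bone, was found in mouse 1 alone with 260 counts (3.39 TPM), and Wnt10a in mouse 3 alone with 112 counts (2.63 TPM). Wnt10b, a ligand known to favour osteoblasts, had 18, 0, 26 and 0 counts. Wnt3a, a classical ligand of the β-catenin pathway, had 28, 4, 0 and 0 counts. No more than 6 counts in any mouse were found for Wnt1, Wnt2, Wnt2b, Wnt3, Wnt7b and Wnt11. No count was found for Wnt7a, Wnt8a, Wnt8b, Wnt9a and Wnt9b, so these ligands were not detected in these libraries.

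Both genes of ligand export were expressed in every mouse, in contrast to the ligands. Wls, the carrier that brings Wnts to the cell surface, had 45.0, 53.6, 78.3 and 44.6 TPM (mean 55.4 ± 15.8, SD, n = 4; chr3:159839672-159938664, plus strand). Porcn, the enzyme that attaches the lipid to Wnts in the endoplasmic reticulum, had 36.0, 57.3, 32.8 and 11.5 TPM (mean 34.4 ± 18.8; chrX:8193848-8206525, minus strand), with mouse 4 lowest. Wls was higher than Porcn in mice 1, 3 and 4, and the difference of 0.83 ± 0.89 in log2(TPM + 1) was within its SD. The level of Wls depended on the length used, with a mean of 107 TPM when its longest transcript was taken in place of its merged exons.

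Of the 10 frizzled receptors, 4 were expressed, and the leading receptor changed between mice. Fzd9, which is known to act in osteoblasts, had 29.3, 14.0, 11.3 and 1.27 TPM, from 1181 counts in mouse 1 and 30 in mouse 4 (chr5:135248938-135251230, minus strand). Fzd1 had 2.04, 9.72, 7.54 and 13.4 TPM (chr5:4753839-4758035, minus strand), lowest in the mouse in which Fzd9 was highest. Fzd5 had 2.50, 19.2, 7.05 and 10.1 TPM (chr1:64730558-64737751, minus strand), and 17.8% of its exonic bases overlap an antisense annotation without counts. Fzd9 led in mice 1 and 3, Fzd5 in mouse 2 and Fzd1 in mouse 4. Fzd8 had 5.33, 0, 1.61 and 1.44 TPM. By counting error alone, its 0 counts in mouse 2 allow at most 0.0451 TPM. None of the 3 neighbouring steps from Fzd9 through Fzd1 and Fzd5 to Fzd8 was larger than its SD.

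The other frizzled receptors reached 1 TPM in only 1 or 2 mice. Fzd3, a receptor known from planar cell polarity, had 0.941, 7.60, 0.276 and 0.529 TPM, with mouse 2 standing apart. Fzd7 had 3.07, 0, 1.42 and 0 TPM. Fzd4 was found almost only in mouse 4, with 320 counts against 1, 0 and 1 in mice 1, 2 and 3. Fzd6 likewise had 274 counts in mouse 4 and 1 count elsewhere, and Fzd10 had 76 counts in mouse 4 and none elsewhere. Mouse 4 therefore held 7 frizzled receptors above 1 TPM and mouse 2 held 4. A lncRNA gene that overlaps 3.15% of the exonic bases of Fzd6 on the other strand also had its counts, 213, in mouse 4 alone. Fzd2 had no count in any mouse.

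Of the 3 genes grouped here as LRP co-receptors, Lrp4 and Lrp6 were expressed in every mouse and Lrp5 was not expressed. Lrp4, which binds the bone antagonist sclerostin, had 4.87, 9.38, 14.9 and 5.0 TPM (mean 8.53 ± 4.71; chr2:91457511-91513779, plus strand) and was the highest of the 3 in each mouse. Lrp6 had 4.14, 7.15, 5.27 and 3.48 TPM (mean 5.01 ± 1.61; chr6:134446476-134566965, minus strand), a narrow range for a gene at this level. Lrp5, in which loss and gain of function change bone mass, had 0.607, 1.44, 0.66 and 0.149 TPM from 104, 156, 111 and 15 counts (chr19:3584828-3686564, minus strand). Lrp4 exceeded Lrp6 by 0.58 ± 0.52 in log2(TPM + 1) in all 4 mice. Lrp6 exceeded Lrp5 by 1.82 ± 0.14 in log2(TPM + 1) (SD, n = 4). This SD was the smallest of the 6 paralogue differences compared, but Lrp5 was below 1 TPM in mice 1, 3 and 4. Adding 1 before the logarithm narrows the spread at such levels, so nothing is drawn from this evenness. Lrp6 was higher in 4 of 4 mice. The p was 0.13 when the signs of the differences were permuted in all ways (exact sign-flip test, two-sided). It was 0.13 after Benjamini-Hochberg adjustment over 6 pairs, the smallest value that 4 mice can give. About 3.23% of the Lrp5 transcript is nearly identical to other genes.

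**Figure D3:**
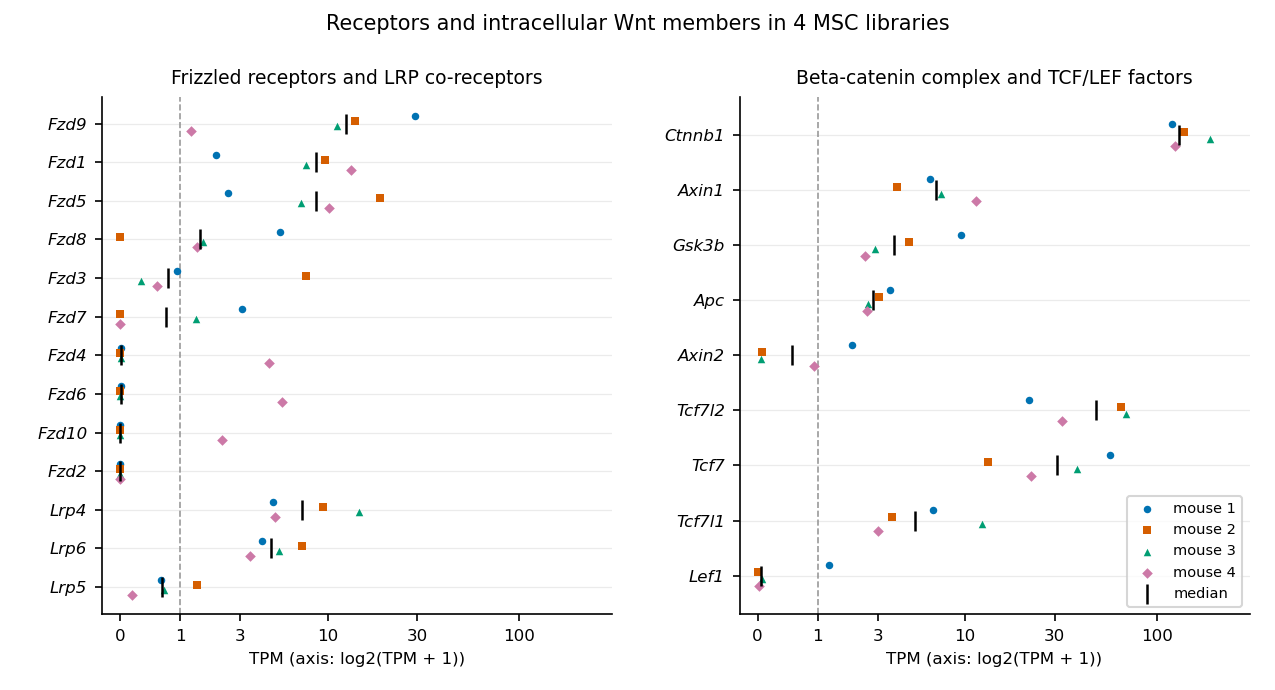
Levels of Wnt receptors, co-receptors and intracellular genes in TPM, on an axis of log2(TPM + 1), 1 point per mouse. Ctnnb1 lies between 120 and 186 TPM with little spread, whereas Fzd9 spans 1.27 to 29.3 TPM.

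In the R-spondin branch the receptor Lgr4 was high and even, and its secreted ligands were uneven. Lgr4 had 24.2, 24.7, 20.1 and 12.6 TPM (mean 20.4 ± 5.59, SD, n = 4; chr2:109917647-110014257, plus strand). Lgr6 had 2.78, 1.12, 6.57 and 1.31 TPM (chr1:134983301-135105276, minus strand). Lgr5, a stem cell marker of several epithelia, had 18, 57, 6 and 10 counts, under 0.5 TPM in each mouse. Lgr4 exceeded Lgr5 by 4.15 ± 0.39 in log2(TPM + 1) in 4 of 4 mice (exact sign-flip permutation p = 0.13, adjusted 0.13).

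Of the R-spondins, 2 were expressed by their medians and neither in every mouse. Rspo3 had 61, 714, 661 and 4 counts, or 1.12, 20.8, 12.4 and 0.13 TPM (chr10:29452416-29535867, minus strand), so mice 2 and 3 were high. The adipocyte list was also highest in mice 2 and 3. So was the sum of the gate antigens and niche genes, with 1124, 4706, 2431 and 1302 TPM. Most of that sum was Cxcl12, with 983, 4329, 2224 and 1079 TPM. Kitl was also highest in mice 2 and 3. Pdgfra, Itgav, Lepr, Prrx1, Ebf3 and Foxc1 did not have their 2 highest values in those mice. The part of either list in the level of Rspo3 was not tested. An antisense annotation without counts overlaps 13.1% of the exonic bases of Rspo3. Rspo2 had 600, 0, 0 and 354 counts, or 6.67, 0, 0 and 6.70 TPM (chr15:43020794-43170826, minus strand), so its high mice were those in which Rspo3 was low. Without mouse 1 or without mouse 4 Rspo2 was no longer expressed by its median. Rspo1 and Rspo4 had no counts. Znrf3, one of the E3 ligases that remove frizzled receptors, had 1.51, 0.569, 0.975 and 0.147 TPM. Rnf43, the other, had no count, which by counting error alone allows at most 0.026 to 0.0443 TPM. With Rnf43 at 0 throughout, their difference of 0.79 ± 0.48 in log2(TPM + 1) is the level of Znrf3 itself and could not have been negative, so nothing is drawn from its sign.

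Ctnnb1 was among the most even of the 64 genes. It encodes β-catenin, which serves both in cell junctions and in Wnt signalling, and its RNA level does not measure the stabilised protein. Ctnnb1 (ENSMUSG00000006932, chr9:120929216-120960507, plus strand) had 10943, 7870, 16713 and 6637 counts, or 120, 136, 186 and 124 TPM (mean 142 ± 30.7, SD, n = 4; percentile 96.7). Mouse 3 was highest and the other mice lay close together. The gene Ulk4 overlaps 14.6% of its exonic bases on the other strand and had at most 5 counts, so the level of Ctnnb1 may be understated by the pairs lost there.

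The genes of the destruction complex were lower but mostly present in every mouse. Axin1, its scaffold, had 6.34, 3.99, 7.36 and 11.5 TPM (chr17:26138688-26195811, plus strand). Gsk3b, the kinase that marks β-catenin for degradation, had 9.48, 4.76, 2.90 and 2.48 TPM (chr16:38089001-38246084, plus strand), with mouse 1 highest. Apc, the tumour suppressor of the complex, had 3.61, 3.06, 2.57 and 2.54 TPM, the narrowest relative spread of the expressed genes (coefficient of variation 17.0%). The steps from Axin1 to Gsk3b and from Gsk3b to Apc were within the spread. Axin2, a direct target of β-catenin that feeds back on the pathway, was not expressed by its median, with 191, 3, 4 and 53 counts, or 1.97, 0.049, 0.042 and 0.931 TPM (chr11:108920349-108950783, plus strand). Only mouse 1 was above 1 TPM. Axin1 exceeded Axin2 by 2.31 ± 0.74 in log2(TPM + 1) in 4 of 4 mice (exact sign-flip permutation p = 0.13, adjusted 0.13).

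Of the TCF/LEF factors, Tcf7l2 and Tcf7 were high and Lef1 was nearly absent outside mouse 1. Tcf7l2 had 21.9, 65.6, 69.8 and 32.7 TPM (mean 47.5 ± 23.8, SD, n = 4; chr19:55741820-55933654, plus strand). Tcf7, best known as TCF1 of T cells, had 57.4, 13.3, 39.3 and 22.5 TPM (mean 33.1 ± 19.4; chr11:52252371-52283014, minus strand), while the T cell gene Cd3e had no count. Tcf7 was higher in mice 1 and 3, the libraries in which Alas2 was found, and the part of red cell RNA in its level was not tested. Tcf7l2 exceeded Tcf7 in 3 of 4 mice, and the difference of 0.55 ± 1.47 was within its SD. With the longest transcript as length, the mean of Tcf7l2 was 87.9 TPM and that of Tcf7 27.4 TPM. Tcf7l1, often a repressor, had 6.61, 3.71, 12.3 and 3.01 TPM (chr6:72626378-72789254, minus strand). Lef1 had 199, 0, 8 and 2 counts, or 1.29, 0, 0.0527 and 0.022 TPM (chr3:131110471-131224356, plus strand), and mouse 1 stood apart. An antisense annotation without counts overlaps 13.7% of the exonic bases of Lef1. Its merged exons span 8788 bases against 3656 in its longest transcript, which lowers its TPM. Tcf7l2 exceeded Tcf7l1 by 2.72 ± 0.95 and Tcf7 exceeded Lef1 by 4.57 ± 0.58 in log2(TPM + 1), each in 4 of 4 mice (exact sign-flip permutation p = 0.13, adjusted 0.13 for each).

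**Figure D4:**
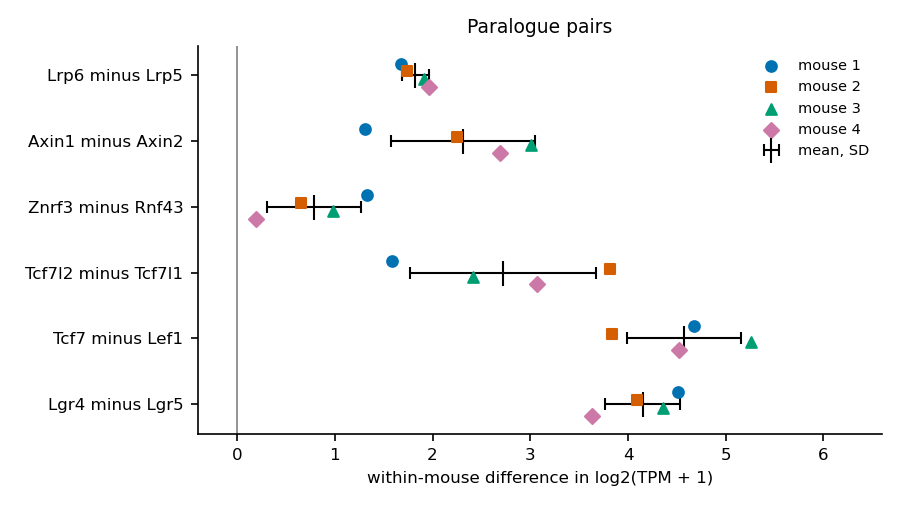
Within-mouse difference in log2(TPM + 1) for the 6 pairs of related genes, 1 point per mouse, with the mean and SD over 4 mice. All points lie above 0, which for Znrf3 minus Rnf43 is given by the 0 counts of Rnf43. Lrp6 minus Lrp5 has the smallest SD, 0.14, on a scale that narrows the spread of genes as low as Lrp5.

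Many Wnt genes of low level were found in some mice and missing in others. Of 23 Wnt genes with a mean from 1 to 10 TPM, 11 had fewer than 3 counts in at least 1 mouse, which is 47.8% beside 41.8% of the 5727 protein-coding genes at that level. Their median coefficient of variation between mice was 106%, ranging from 17.0% for Apc to 200% for genes found in a single mouse, beside a median of 84.7% for protein-coding genes. Counting error alone gives 5.68% for these Wnt genes. The 8 Wnt genes from 10 to 100 TPM had a median of 54.8% beside 44.0%. From 100 to 1000 TPM, the 3 Wnt genes Wif1, Sfrp4 and Ctnnb1 had 48.0%, 56.4% and 21.7% beside a median of 24.7% for 828 genes, so that Ctnnb1 was more even and Wif1 and Sfrp4 less even than most genes of their level.

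**Figure D5:**
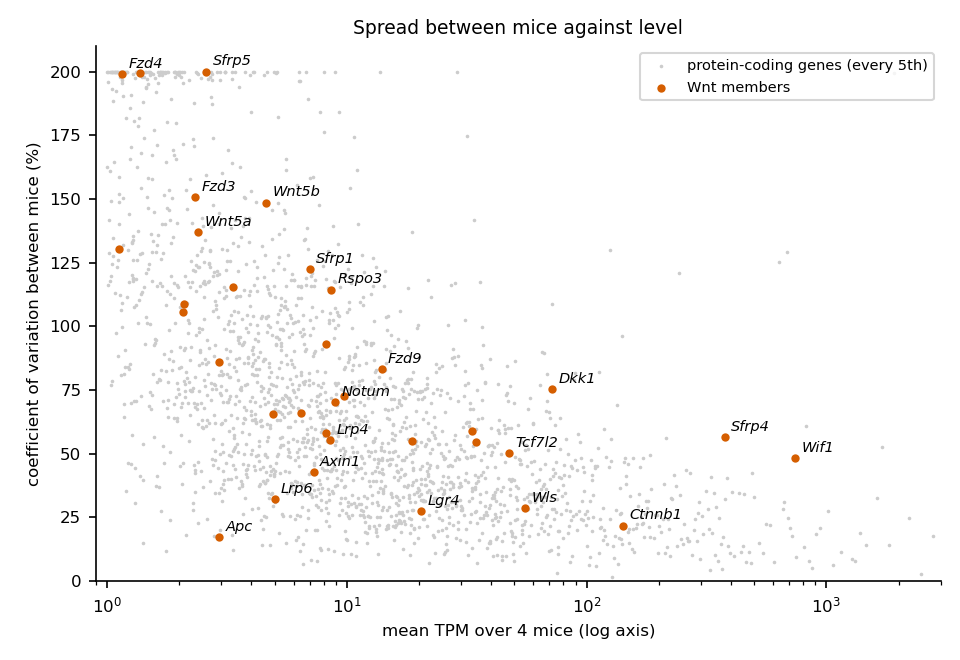
Coefficient of variation between the 4 mice (%) against mean TPM (log axis), with Wnt genes over protein-coding genes. Apc (17.0%) and Ctnnb1 (21.7%) lie below the median of their level and Sfrp4 (56.4%) above it.

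The detection of a gene in a single mouse was not rare in these libraries. At least 10 counts in 1 mouse and fewer than 3 in each of the others were found for 8 of the 64 Wnt genes (12.5%), beside 7.99% of protein-coding genes. They were Dkk4, Sfrp5 and Wnt16 in mouse 1, Wnt6 in mouse 2, Wnt10a in mouse 3, and Fzd4, Fzd6 and Fzd10 in mouse 4. Among protein-coding genes 335, 207, 497 and 712 were of this kind in mice 1, 2, 3 and 4, with the most in mouse 4 and the fewest in mouse 2. Mouse 2 also had the fewest Wnt genes above 1 TPM, 25 against 29 to 34 in the others, and was the library with the fewest detected genes, 16109 against 18683 to 18907.

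Outside the 64 genes, a list of 65 further pathway genes was read in the same way, and 44 of them were expressed (67.7%), beside 44.2% of protein-coding genes. The counts by list that follow stand beside the same share. Of 12 other extracellular modulators, 6 were expressed. Cthrc1, a secreted protein that binds Wnt and frizzled, had a median of 1623 TPM (mean 1600 ± 590, SD, n = 4) and was thus above Wif1, and Igfbp4 and the glypican Gpc4 had medians of 574 and 90.4 TPM. Sost, which encodes sclerostin, an antagonist made by osteocytes, had no count in any mouse. The osteocyte marker Fgf23 also had none, whereas Phex and Mepe were above 1 TPM in every mouse.

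Of 14 genes for alternative receptors and planar polarity, 6 were expressed, led by Ryk, a receptor of Wnt5a, with a median of 23.9 TPM, and by Prickle1 and Daam2 with 5.30 and 5.10 TPM. Ror2, another receptor of Wnt5a, had 0, 109, 76 and 0 counts and did not pass. Neither Ror2 nor Wnt5a was found in every mouse. The cytoplasmic relay had 11 of 13 expressed, with Csnk1a1, Csnk1d and Dvl3 highest at medians of 39.1, 23.1 and 14.2 TPM. Of the Dishevelled genes, which pass the signal from frizzled inwards, Dvl3 and Dvl1 (6.79 TPM) were expressed and Dvl2 (0.78 TPM) was not. Of 12 nuclear partners 11 were expressed, led by Ctbp1 with a median of 32.3 TPM and by the co-repressors Tle2 and Tle3 with 7.20 and 6.17 TPM.

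Of 14 genes listed as transcriptional targets, 10 were expressed and all 10 were above 1 TPM in every mouse. The highest were Ccn4, Ccn5 and Bambi, with medians of 305, 235 and 184 TPM. Sp5, Cdx1 and T had no count, and Nkd1 had 255 counts in mouse 4 alone. Axin2 and Lef1, counted above with the pathway itself, are known targets too and did not pass. Several of these targets are also under the control of other pathways, and their levels do not measure Wnt signalling.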

How the data were processed

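RNA-seq libraries of 100 sorted MSCs from each of 4 mice formed 1 group. The authors mapped reads to GRCm39 with STAR, requiring 40% of the bases of a pair to align, counted uniquely mapped pairs on Ensembl 108 exons with featureCounts (Subread 1.6.5, no strand option given, so unstranded by default) and deposited raw counts without normalization. TPM was computed here from the deposited counts and the merged exon length of each gene in GENCODE M21 on GRCm38, joined by Ensembl identifier. This is not the build of the counts, so a gene whose exons changed has a TPM off by that ratio. TPM excludes 4855 genes that lack a length. Coordinates are those of GRCm38.

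A median above 1 TPM was called expressed. Paralogues were compared by the within-mouse difference in log2(TPM + 1), a scale that understates differences of low genes, with an exact sign-flip permutation test and Benjamini-Hochberg adjustment over 6 pairs. Neighbours by median TPM within a role were said to differ beyond the spread where the mean difference exceeded its SD and all mice shared its sign. Expressed genes were given in every mouse, and those below the cutoff with at least 10 counts in some mouse were named with values. Of the 65 further pathway genes, the 3 highest of each list were named, along with Sost, Ror2 and Dvl1 to Dvl3. Nkd1, Sp5, Cdx1, T and the single marker genes were named after their values were seen. Some genes of the haematopoietic marker list are not reported here, and no sum of that list is given. The members, lists and tests were chosen with earlier results of these data known. Limits for 0 counts take 3 counts and cover counting error only, since PCR reads without molecular identifiers are not independent molecules. Exon overlaps are those of GENCODE M21, and BLAST 2.17.0 searched its transcripts for stretches of at least 100 bases with 95% identity. The code (Python 3.11.15, numpy 2.4.6, scipy 1.17.1, pandas 2.3.3, and edgeR 4.0.16 in R 4.3.3 for TMM factors) was tested on simulated data of 52125 genes, and called 50692 of the 50730 genes not near the cutoff correctly. The simulated libraries shared the same profile and differed by counting error only. The test therefore checks the code, and not how reliable the calls are given the spread between these mice. Alternatives were other lengths, denominators, scalings, cutoffs and summaries, another pseudocount and leaving out each mouse.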

Additional observations from a re-analysis of the deposited data

Results flagged for a closer look

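In 12 of 57 values compared over the 4 mice, 1 mouse stood apart from the others, with a gap to its nearest neighbour that exceeded Dixon's 95% critical share of the whole range. Chance flags about 1 in 20 groups, but the number found here cannot be set against that share, since genes that were not expressed entered only with at least 10 counts in some mouse. The same choice and the limit at 0 also fix the mouse apart as the highest for genes seen in 1 mouse. The gap was the whole range (1) for Wnt10a in mouse 3, for Wnt16, Sfrp5 and Dkk4 in mouse 1, for Wnt6 in mouse 2 and for Fzd10 in mouse 4, since each had no count elsewhere. It was 0.998 of the range for Fzd4 and 0.998 for Fzd6, both in mouse 4, and 0.959 for Lef1 in mouse 1. It was 0.909 for Fzd3 and 0.858 for Lgr5, both in mouse 2. For the summed TPM of β-catenin and the destruction complex it was 0.879, with 199 TPM in mouse 3 against 141 to 148 TPM in the other mice.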

How the results depend on the processing

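The same 29 genes were expressed with the longest transcript as length, with protein-coding genes as denominator, with TMM factors and with a common upper quartile. Of their means, those of Wls (107 TPM) and Tcf7l2 (87.9 TPM) moved by more than 1 SD with the longest transcript, 16 did so as CPM and 13 without the 10 highest genes in the denominator. The count was 34 by CPM without length, 32 without the 10 highest genes in the denominator, 34 by the mean in place of the median, 33 with a cutoff of 0.5 TPM, and 20 when every mouse had to pass 1 TPM or have at least 10 counts. With a cutoff of 5 TPM it was 19, since Apc, Fzd8, Gsk3b, Lgr6, Lrp6, Rspo2, Sfrp1, Wnt4, Wnt5a and Wnt5b were then lost. Leaving out 1 mouse at a time gave 25 to 30 genes, the fewest without mouse 1. All 6 pair differences were positive in every mouse, so of the 12 settings run for them only a change of length could have turned a sign, and neither length setting did. Their ranges in log2 units were 1.78 to 3.07 for Lrp6 minus Lrp5, 2.02 to 3.90 for Axin1 minus Axin2, 0.61 to 2.87 for Znrf3 minus Rnf43, 2.36 to 3.96 for Tcf7l2 minus Tcf7l1, 4.15 to 7.0 for Tcf7 minus Lef1 and 3.90 to 6.39 for Lgr4 minus Lgr5. No paired analysis of groups was possible because the labels give 1 group. With 4 mice no pair test can reach 0.05. Levels under the limit of 3 counts, between 0.0689 and 0.132 CPM before correction for length, are not detectable at this depth.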
